A study of Arabidopsis thaliana with 29 samples.

Results

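The transcripts of 10 proteins of chlorophyll synthesis are described. They were picked by gene identifier as HEMA1, GUN5 (CHLH), CHLI1, CHLD, GUN4, CHLM, CRD1, PORB, PORC and CAO, without use of their measured values, and are 10 of 33681 loci in the table. Transcript abundance was measured by RNA sequencing of total RNA from whole plants of Arabidopsis thaliana. The mutant pp7l, defective in a phosphatase-like nuclear protein (PP7L) that chloroplast development depends on, was compared with Col0, the wild-type accession Col-0. Plants grew in soil under long days, were 3 weeks old at the start, and were kept unwatered for 0, 6, 9, 12 or 15 days (written 0 D to 15 D). The groups are therefore pp7l at 0 D, 6 D, 9 D, 12 D and 15 D (15 libraries) and Col0 at the same days (14 libraries), with 3 libraries each, save that Col0 at 6 D has only replicates 1 and 3. Watered plants of the later days are not among the groups, so lack of water and plant age cannot be told apart in a change from 0 D. The sources name different alleles of the mutant, so it is written pp7l, and nothing in them tells if replicates come from separate plants or pools, so p-values measure the spread between libraries, which may be technical.

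Chlorophyll and heme share a tetrapyrrole pathway in the plastid, which begins with 5-aminolevulinate made from glutamyl-tRNA and forks at protoporphyrin IX. Mg-chelatase commits protoporphyrin to chlorophyll and ferrochelatase commits it to heme, and free intermediates of the chlorophyll branch are phototoxic. The enzymes are encoded in the nucleus, and their transcripts are known to follow light, the clock and signals from the plastid, to which GUN4 and GUN5 owe their names (genomes uncoupled).

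By their order in the pathway, HEMA1 (AT1G58290) encodes the main glutamyl-tRNA reductase of green tissue, the regulated first step. GUN5 (AT5G13630), CHLI1 (AT4G18480) and CHLD (AT1G08520) encode the H, I and D subunits of Mg-chelatase, and GUN4 (AT3G59400) a porphyrin-binding activator of that enzyme. CHLM (AT4G25080) encodes the Mg-protoporphyrin methyltransferase and CRD1 (AT3G56940) a subunit of the cyclase that closes the fifth ring. PORB (AT4G27440) and PORC (AT1G03630) encode light-dependent protochlorophyllide reductases, and CAO (AT1G44446) the oxygenase that turns chlorophyll a into chlorophyll b.

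In the TAIR10.1 reference, HEMA1 lies at chr1:21623700-21626402, CHLD at chr1:2696381-2701022, PORC at chr1:907523-909650 and CAO at chr1:16848308-16851271. GUN4 lies at chr3:21948501-21949796 and CRD1 at chr3:21076505-21078443. CHLI1 lies at chr4:10201672-10203469, CHLM at chr4:12876822-12878703 and PORB at chr4:13725546-13727440, and GUN5 at chr5:4387307-4392429. All 10 are annotated as protein-coding, and the values cover the whole gene rather than a part of it. Whether the quantification used strand is not given in the sources used here, so reads of overlapping genes may not be separable. GUN4 shares 946 bases with AT3G59410 on the opposite strand, whose own level at 15 D was 4.12 to 5.23 TPM in pp7l and 0.441 to 2.10 TPM in Col0. In the other members an overlap with a neighbouring gene spans 36 to 259 bases, and HEMA1 and GUN5 have none. The coding sequences of PORB and PORC are identical at 73.5% of aligned bases, with no identical run over 20 bases. HEMA1 matches HEMA2 at 83.1% and CHLI1 matches CHLI2 at 81.8%, with identical runs of up to 49 and 44 bases. Values of these paralogs could be partly exchanged in the quantification, which was not tested.

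Since the 10 transcripts moved together, the 300 bases upstream of each annotated start were searched on both strands for 4 short motifs known from light and clock control. CACGTG (the G-box core, bound by bHLH and bZIP factors) was found upstream of CRD1 and CAO, 2 of the 10, and in 7.09% of 27443 promoters of the same length. CCAATC (a motif reported for GLK factors) was found upstream of GUN4 and PORB, 2 of the 10, and in 12.2% of all. In GUN4 it lies at -13 to -8, where AT3G59410 leaves 0 bases next to the start free of another gene. AAAATATCT (the evening element) was found upstream of PORB alone of the 10, and in 2.79% of all. GATAAG (bound by GATA factors) was found in 0 of the 10 and in 14.5% of all. None of these motifs overlapped another, and these letters are a description of the windows, not evidence of binding. The upstream stretches that hold the matches in CRD1, PORB and CAO are shown 5′ to 3′ on the gene's strand as far as no other annotated gene covers them (RefSeq, TAIR10.1), with matches in capitals. They are shown because CRD1 and PORB were the most abundant members at 0 D and CAO was among the least changed. The G-box lies at positions -52 to -47 from the annotated start in both CRD1 and CAO, and CAO has another at -32 to -27. In PORB the evening element lies at -142 to -134 and CCAATC at -22 to -17, and a further CCAATC at -219 to -214 is in the stretch covered by another gene.
PORB, chr4:13725360-13725545, plus strand: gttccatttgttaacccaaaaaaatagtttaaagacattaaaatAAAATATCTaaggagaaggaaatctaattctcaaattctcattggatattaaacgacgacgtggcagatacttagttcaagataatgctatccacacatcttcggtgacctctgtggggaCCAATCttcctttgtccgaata
CRD1, chr3:21076316-21076504, plus strand: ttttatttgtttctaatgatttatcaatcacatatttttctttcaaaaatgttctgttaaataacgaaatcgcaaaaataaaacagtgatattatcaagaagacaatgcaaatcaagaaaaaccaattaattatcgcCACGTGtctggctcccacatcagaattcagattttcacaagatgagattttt
CAO, chr1:16851272-16851571, minus strand: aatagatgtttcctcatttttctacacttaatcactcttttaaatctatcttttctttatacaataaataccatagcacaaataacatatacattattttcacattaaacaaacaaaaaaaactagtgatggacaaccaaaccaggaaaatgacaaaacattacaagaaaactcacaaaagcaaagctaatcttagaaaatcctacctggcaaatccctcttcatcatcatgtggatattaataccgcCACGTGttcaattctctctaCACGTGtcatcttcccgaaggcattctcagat

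The values are TPM, which scale each transcript for its length and for the library's total, so each library adds up to the same total and a gene's TPM moves with every other transcript in it. Read numbers are not given, so depth and counting error are unknown; 17976 to 22769 loci were above 0 in a library. Nuclear protein-coding loci held 25.6% to 26.6% of TPM in pp7l at 15 D and 6.88% to 17.4% in Col0 at 15 D. In Col0 at 15 D nuclear rRNA loci held 27.5%, 0.110% and 61.2% in replicates 1, 2 and 3, and the locus AT1G15405 held 46.0% in replicate 2. Col0 6 D replicate 1 stood apart, with 86.7% of TPM on plastid loci and a rank correlation of 0.876 with its group mate, where all other pairs within groups lay between 0.948 and 0.977. The transcript of the mutated gene, PP7L (AT5G10900), averaged 0.586 to 1.58 TPM in pp7l and 0.105 to 1.03 TPM in Col0 and so does not check the genotype. Tests are limma contrasts on log2(TPM + 1) across 18757 loci with Benjamini-Hochberg adjustment. A transcript is said to rise, fall, or be higher or lower where the adjusted p was under 0.05. "Relative" values have the change of the median locus subtracted. That median was -0.23 in Col0 and 0.61 in pp7l for 15 D against 0 D, and 1.27 for pp7l against Col0 at 15 D. All 10 members passed the filter on low values.

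**Figure D1:**
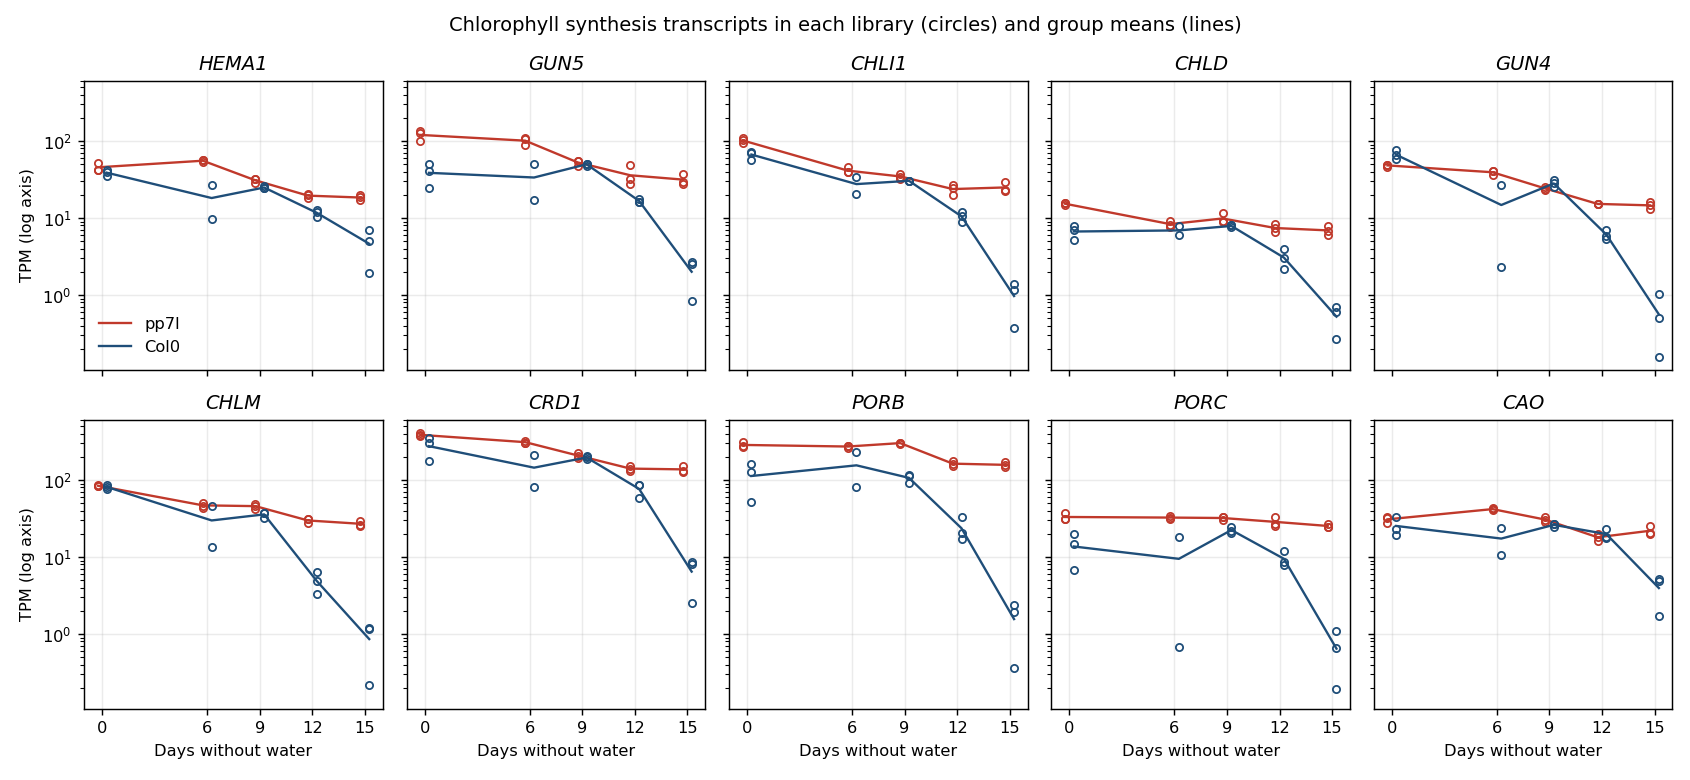
TPM (log axis) of each of the 10 transcripts against days without water. Circles are libraries, lines join group means, pp7l in red and Col0 in blue. Col0 drops to its lowest level at 15 D in all 10 panels, while the pp7l libraries stay above every Col0 library of that day. At 15 D, 77.5% of all tested loci were higher in pp7l than in Col0.

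The 10 transcripts together summed to 1150.0 ± 69.5 TPM at 0 D, 948 ± 29.7 TPM at 6 D, 770.1 ± 16.1 TPM at 9 D, 482 ± 40.7 TPM at 12 D and 465 ± 43.1 TPM at 15 D in pp7l (SD, n = 3). In Col0 they summed to 725 ± 184 TPM at 0 D, 241 and 673 TPM in replicates 1 and 3 of 6 D, 528 ± 28.8 TPM at 9 D, 182 ± 29.3 TPM at 12 D and 22.2 ± 11.8 TPM at 15 D (SD, n = 3). At the last day the pp7l libraries lay far above the Col0 libraries, with no overlap. In whole plants, fewer green cells and less of these transcripts per cell cannot be told apart. Among the 10 groups, Col0 at 15 D had the lowest mean of every member, and its libraries did not overlap those of the next group up, except for PORC, where 1 Col0 library of 6 D lay among them. At 15 D, 77.5% of all 18757 tested loci were higher in pp7l than in Col0, so this low rank alone does not set the members apart. The share of all loci with their lowest mean in that group was not counted. The highest mean was found in pp7l at 0 D for GUN5, CHLI1, CHLD, CHLM, CRD1 and PORC, in pp7l at 6 D for HEMA1 and CAO, in pp7l at 9 D for PORB, and in Col0 at 0 D for GUN4. The leading ranges overlapped the next group for GUN5, CHLM, PORB and PORC, so those orders at the top do not exceed the spread.

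HEMA1, the entry step, was not called lower in pp7l before 12 D. In pp7l it stood at 41.7, 42.4 and 52.4 TPM at 0 D, 53.1, 56.7 and 56.5 TPM at 6 D, 32.1, 32.2 and 28.2 TPM at 9 D, 18.4, 19.6 and 20.5 TPM at 12 D, and 18.5, 17.0 and 19.8 TPM at 15 D. In Col0 it stood at 34.7, 42.3 and 39.4 TPM at 0 D, 9.76 and 26.6 TPM at 6 D, 24.8, 24.2 and 25.6 TPM at 9 D, 10.4, 12.7 and 11.99 TPM at 12 D, and 5.04, 6.90 and 1.94 TPM at 15 D. In both genotypes every library of 12 D and 15 D lay below every library of 0 D. Against 0 D, HEMA1 fell at 12 D with a log2 change of -1.17 ± 0.31 (SE, -1.64 relative, adjusted p = 0.00348) in pp7l and -1.65 ± 0.31 (SE, -2.62 relative, adjusted p = 3.05e-05) in Col0. At 15 D the change was -1.25 ± 0.31 (SE, -1.86 relative, adjusted p = 0.00149) in pp7l and -2.93 ± 0.31 (SE, -2.70 relative, adjusted p = 7.86e-09) in Col0. The pp7l libraries of 15 D all lay above the Col0 libraries, with a log2 difference of 1.90 ± 0.31 (SE, 0.64 relative, adjusted p = 4.14e-06). This was the member nearest to the median locus at that day, and after median-of-ratios scaling its difference was -0.03.

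The H subunit GUN5 was the member whose starting levels differed most between the genotypes. In pp7l it stood at 134, 99.8 and 126 TPM at 0 D, 106, 88.0 and 108 TPM at 6 D, 54.6, 47.5 and 55.6 TPM at 9 D, 27.5, 31.8 and 48.2 TPM at 12 D, and 29.3, 28.0 and 37.2 TPM at 15 D. In Col0 it stood at 41.0, 50.4 and 24.4 TPM at 0 D, 16.9 and 50.2 TPM at 6 D, 50.8, 50.9 and 47.8 TPM at 9 D, 16.3, 17.5 and 16.1 TPM at 12 D, and 2.64, 2.53 and 0.842 TPM at 15 D. At 0 D every pp7l library lay above every Col0 library, a log2 difference of 1.66 ± 0.34 (SE, 1.38 relative, adjusted p = 0.00148), or 3.16-fold on TPM + 1. By 9 D the groups overlapped. At 9 D GUN5 had fallen in pp7l with a change of -1.17 ± 0.34 (SE, -1.51 relative, adjusted p = 0.011). The value in Col0 was 0.42 ± 0.34 (SE, -0.44 relative, adjusted p = 0.281), and the change in pp7l minus that in Col0 was -1.59 ± 0.49 (SE, adjusted p = 0.0275). That difference was lost with a pseudocount of 0.1 and without any 1 of 7 libraries, replicates 1 and 3 of 0 D and 1 and 2 of 9 D in pp7l, and replicate 3 of 0 D and 1 and 2 of 9 D in Col0 (adjusted p = 0.0517 to 0.106). At 15 D the change was -1.89 ± 0.34 (SE, -2.50 relative, adjusted p = 7.47e-05) in pp7l and -3.72 ± 0.34 (SE, -3.49 relative, adjusted p = 7.27e-10) in Col0.

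CHLI1, the ATPase subunit, was lower in both genotypes at each later day. In pp7l it had 93.2, 102 and 110.4 TPM at 0 D, 39.0, 45.3 and 39.3 TPM at 6 D and 22.3, 22.8 and 29.7 TPM at 15 D. In Col0 it had 57.0, 70.7 and 72.3 TPM at 0 D, 20.6 and 34.5 TPM at 6 D and 1.37, 1.17 and 0.371 TPM at 15 D. Both genotypes were already lower at 6 D than at 0 D in every library. The change at 6 D was -1.28 ± 0.26 (SE, -1.53 relative, adjusted p = 0.00105) in pp7l and -1.28 ± 0.29 (SE, -1.41 relative, adjusted p = 0.00216) in Col0. At 15 D it was -1.995 ± 0.26 (SE, -2.60 relative, adjusted p = 1.48e-06) in pp7l and -5.13 ± 0.26 (SE, -4.90 relative, adjusted p = 9.02e-15) in Col0. The D subunit CHLD was the least abundant member. It had 14.6, 15.4 and 15.9 TPM in pp7l and 7.08, 7.77 and 5.17 TPM in Col0 at 0 D, which do not overlap, and was higher in pp7l by 1.10 ± 0.21 (SE, 0.82 relative, adjusted p = 7.51e-04). At 15 D it had 6.82, 5.95 and 7.93 TPM in pp7l and 0.703, 0.600 and 0.266 TPM in Col0. All Col0 libraries of that day were under 1 TPM, where the added pseudocount compresses a fold change.

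GUN4, the activator, was the member whose mean at 0 D was lower in pp7l than in Col0. In pp7l it stood at 45.9, 49.5 and 49.1 TPM at 0 D, 40.4, 36.3 and 41.0 TPM at 6 D, 25.4, 23.9 and 23.3 TPM at 9 D, 15.3, 15.0 and 15.4 TPM at 12 D, and 13.04, 16.1 and 14.6 TPM at 15 D. In Col0 it stood at 65.8, 75.3 and 57.5 TPM at 0 D, 2.30 and 27.2 TPM at 6 D, 25.2, 30.8 and 28.2 TPM at 9 D, 5.83, 7.06 and 5.37 TPM at 12 D, and 1.03, 0.495 and 0.158 TPM at 15 D. At 0 D all Col0 libraries lay above the pp7l libraries, with a log2 difference of -0.44 ± 0.41 (SE, adjusted p = 0.497), which did not pass. At 6 D, 12 D and 15 D the order was the other way round and the groups did not overlap. GUN4 was higher in pp7l by 1.20 ± 0.41 (SE, 1.39 relative, adjusted p = 0.0198) at 12 D and 3.35 ± 0.41 (SE, 2.09 relative, adjusted p = 6.43e-08) at 15 D. The call at 12 D was lost without replicate 3 of Col0 at 12 D, with a difference of 1.13 (adjusted p = 0.0627). From 0 D to 15 D it fell in both, with a change of -1.66 ± 0.41 (SE, -2.27 relative, adjusted p = 0.00152) in pp7l and -5.46 ± 0.41 (SE, -5.22 relative, adjusted p = 1.61e-11) in Col0. The ratio of GUN4 to GUN5 within a library was 0.471 ± 0.0947 at 15 D in pp7l, against 0.410 ± 0.0783 at 0 D. In Col0 it was 0.257 ± 0.113 at 15 D, against 1.82 ± 0.470 at 0 D (SD, n = 3 each).

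CHLM, the methyltransferase, overlapped between the genotypes at 0 D and stood far apart at 12 D. In pp7l it stood at 84.4, 83.7 and 84.9 TPM at 0 D, 43.6, 46.0 and 50.97 TPM at 6 D, 45.6, 49.3 and 42.4 TPM at 9 D, 30.7, 27.3 and 31.5 TPM at 12 D, and 26.3, 25.02 and 29.7 TPM at 15 D. In Col0 it stood at 81.4, 85.7 and 77.5 TPM at 0 D, 13.6 and 46.1 TPM at 6 D, 32.3, 37.6 and 37.4 TPM at 9 D, 6.46, 4.93 and 3.31 TPM at 12 D, and 1.16, 1.21 and 0.216 TPM at 15 D. At 12 D the lowest pp7l library lay well above the highest Col0 library. The difference was 0.05 ± 0.32 (SE, adjusted p = 0.959) at 0 D and 2.42 ± 0.32 (SE, 2.61 relative, adjusted p = 6.39e-07) at 12 D. By 15 D it had fallen in both, with a change of -1.61 ± 0.32 (SE, -2.22 relative, adjusted p = 1.78e-04) in pp7l and -5.52 ± 0.32 (SE, -5.29 relative, adjusted p = 1.06e-13) in Col0.

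CRD1, the cyclase subunit, was the most abundant transcript of the 10 by mean in pp7l at 0 D and 6 D and in Col0 at each day but 6 D. It had 385, 367 and 406 TPM at 0 D and 127, 132 and 154 TPM at 15 D in pp7l. In Col0 it had 298, 349.8 and 178 TPM at 0 D and 8.18, 8.65 and 2.56 TPM at 15 D. At 15 D the genotypes did not overlap. CRD1 fell with a change of -1.49 ± 0.37 (SE, -2.10 relative, adjusted p = 0.00147) in pp7l and -5.29 ± 0.37 (SE, -5.05 relative, adjusted p = 3.34e-12) in Col0, and was higher in pp7l by 4.34 ± 0.37 (SE, 3.08 relative, adjusted p = 1.60e-10) at 15 D. At 0 D the difference of 0.54 ± 0.37 (SE, adjusted p = 0.321) did not pass.

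PORB, a light-dependent protochlorophyllide reductase, showed the widest gap of the 10 between the genotypes at 15 D. In pp7l it stood at 280.1, 265 and 311 TPM at 0 D, 259, 279 and 278 TPM at 6 D, 294, 307 and 303 TPM at 9 D, 160.4, 153 and 176 TPM at 12 D, and 155, 147 and 170.4 TPM at 15 D. In Col0 it stood at 126, 162 and 51.04 TPM at 0 D, 80.6 and 229.6 TPM at 6 D, 91.6, 112 and 116 TPM at 9 D, 33.2, 20.7 and 16.9 TPM at 12 D, and 1.95, 2.38 and 0.357 TPM at 15 D. No Col0 library reached the lowest pp7l library of its own day, at any of the 5 days. PORB was higher in pp7l by 1.48 ± 0.40 (SE, 1.20 relative, adjusted p = 0.0105) at 0 D, 2.79 ± 0.40 (SE, 2.98 relative, adjusted p = 2.46e-06) at 12 D and 6.05 ± 0.40 (SE, 4.79 relative, adjusted p = 2.40e-12) at 15 D. The last is 66.3-fold on TPM + 1. Against 0 D, the change of PORB at 15 D was -0.85 ± 0.40 (SE, -1.46 relative, adjusted p = 0.0709) in pp7l, which did not pass, and -5.42 ± 0.40 (SE, -5.19 relative, adjusted p = 1.07e-11) in Col0. Rescaled so that nuclear protein-coding loci alone make up the TPM total, PORB stood at 601 ± 40.1 at 15 D and 1200.0 ± 77.6 at 0 D in pp7l, and the change there then passed (adjusted p = 0.00534). On that scale it stood in Col0 at 10.1 ± 4.37 at 15 D and 485 ± 212 at 0 D (SD, n = 3 each).

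PORC, the other reductase measured here, did not pass any test against 0 D in pp7l. It had 31.0, 30.8 and 37.5 TPM at 0 D and 24.4, 24.8 and 26.8 TPM at 15 D there, a change of -0.37 ± 0.48 (SE, -0.98 relative, adjusted p = 0.528). In Col0 it had 14.6, 19.7 and 6.82 TPM at 0 D, 0.676 and 18.3 TPM at 6 D, 21.8, 20.8 and 24.6 TPM at 9 D and 0.660, 1.08 and 0.196 TPM at 15 D. The 2 Col0 libraries of 6 D lie far apart. PORC fell in Col0 at 15 D with a change of -3.08 ± 0.48 (SE, -2.85 relative, adjusted p = 4.83e-06). The ratio of PORC to PORB within a library was 0.161 ± 0.00689 at 15 D in pp7l, against 0.116 ± 0.00477 at 0 D. In Col0 it was 0.447 ± 0.105 at 15 D, against 0.124 ± 0.00882 at 0 D (SD, n = 3 each). Within each genotype, every library of 15 D had a higher ratio than every one of 0 D.

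CAO, which makes chlorophyll b, was called lower in Col0 at 15 D but not at 6 D, 9 D or 12 D. In pp7l it stood at 27.4, 32.7 and 32.5 TPM at 0 D, 42.2, 40.5 and 43.0 TPM at 6 D, 32.8, 30.3 and 28.8 TPM at 9 D, 16.0, 19.9 and 18.3 TPM at 12 D, and 20.6, 20.1 and 25.1 TPM at 15 D. In Col0 it stood at 23.4, 33.2 and 19.3 TPM at 0 D, 10.8 and 24.0 TPM at 6 D, 24.6, 26.8 and 27.1 TPM at 9 D, 17.9, 23.4 and 18.3 TPM at 12 D, and 5.23, 4.92 and 1.71 TPM at 15 D. At 12 D the genotypes overlapped, and at 15 D every pp7l library lay above every Col0 library. The change in Col0 was -0.31 ± 0.30 (SE, adjusted p = 0.358) at 12 D and -2.47 ± 0.30 (SE, -2.23 relative, adjusted p = 1.02e-07) at 15 D. In pp7l the change at 15 D, -0.48 ± 0.30 (SE, -1.08 relative, adjusted p = 0.181), did not pass, and at 12 D CAO fell with a change of -0.74 ± 0.30 (SE, adjusted p = 0.047), a call that was lost in 22 of the 29 fits that left out 1 library (adjusted p up to 0.143). The ratio of CAO to CHLM within a library was 0.811 ± 0.0306 at 15 D in pp7l and 0.366 ± 0.0363 at 0 D. In Col0 it was 5.50 ± 2.08 at 15 D and 0.308 ± 0.0716 at 0 D (SD, n = 3 each).

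Counted over the 10, the first comparison asks what changed in pp7l while water was withheld. Against 0 D, limma called 2 members lower at 6 D (CHLI1 and CHLD; 3.9% of all 18757 loci were lower), 4 at 9 D (GUN5, CHLI1, CHLD and CHLM; 5.06%), 8 at 12 D (all but PORB and PORC; 6.31%) and 7 at 15 D (all but PORB, PORC and CAO; 5.7%). No member was called higher in pp7l at any day, where 17.5%, 27.7%, 37.8% and 49.3% of all loci were at 6 D, 9 D, 12 D and 15 D. For 6 D, 9 D, 12 D and 15 D in turn, the median change of the 10 was -0.27, -0.73, -1.31 and -1.37, beside 0.25, 0.34, 0.46 and 0.61 for all loci. The calls of CHLD and CHLM at 9 D, -0.60 ± 0.21 (SE, adjusted p = 0.0304) and -0.87 ± 0.32 (SE, adjusted p = 0.0364), were lost with a pseudocount of 0.1. They were also lost without any 1 of replicates 1, 2 and 3 of 0 D and 1 and 2 of 9 D in pp7l (adjusted p up to 0.111 and 0.0873), that of CHLM also without replicate 3 of 9 D (adjusted p = 0.110), and the count of 4 ran from 2 to 6 over the 29 fits that left out 1 library. After scaling to nuclear protein-coding loci, all members but PORC were lower at 15 D, where 8.81% of 18006 loci were lower.

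In Col0, 4 members were lower at 6 D (HEMA1, CHLI1, GUN4 and CHLM; 9.34% of all loci), 3 at 9 D (CHLI1, GUN4 and CHLM; 2.88%), 8 at 12 D (all but PORC and CAO; 11.9%) and 10 at 15 D (34.7%). At 15 D the log2 changes ran from -2.33 for CHLD to -5.52 for CHLM, with adjusted p from 9.02e-15 to 4.83e-06. The value for CHLD is compressed by the pseudocount, and so are those for CHLI1, GUN4, CHLM and PORC, whose means at 15 D were also under 1 TPM. The order of the falls therefore depends on the pseudocount. By mean TPM, GUN4 kept 0.846% of its 0 D level and CHLM 1.05%. By mean TPM, CHLD kept 7.84% of its 0 D level, HEMA1 11.9% and CAO 15.6%, and every other member kept less. Over the same 4 days the median of the 10 was -1.11, -0.18, -1.72 and -4.43, beside 0.13, 0.86, 0.97 and -0.23 for all loci. At 6 D the result rests on libraries that differ. GUN4 stood at 2.30 TPM in replicate 1 and 27.2 TPM in replicate 3, and PORC at 0.676 and 18.3 TPM. Without replicate 1, CHLI1, GUN4 and CHLM were lower, with changes of -0.92 (adjusted p = 0.0126), -1.25 (adjusted p = 8.25e-04) and -0.81 (adjusted p = 0.0343), HEMA1 stood at -0.53 (adjusted p = 0.202), and PORB was higher by 1.17 (adjusted p = 0.0409). Without replicate 3, where replicate 1 stands alone, 8 members were lower; a lone library is assumed in the fit to vary like the other groups. The high rRNA share of Col0 15 D replicate 3 is seen beside the lowest TPM of each member in that group. Without that library all 10 were still lower at 15 D, with changes of -2.08 for CAO to -5.26 for GUN4.

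**Figure D2:**
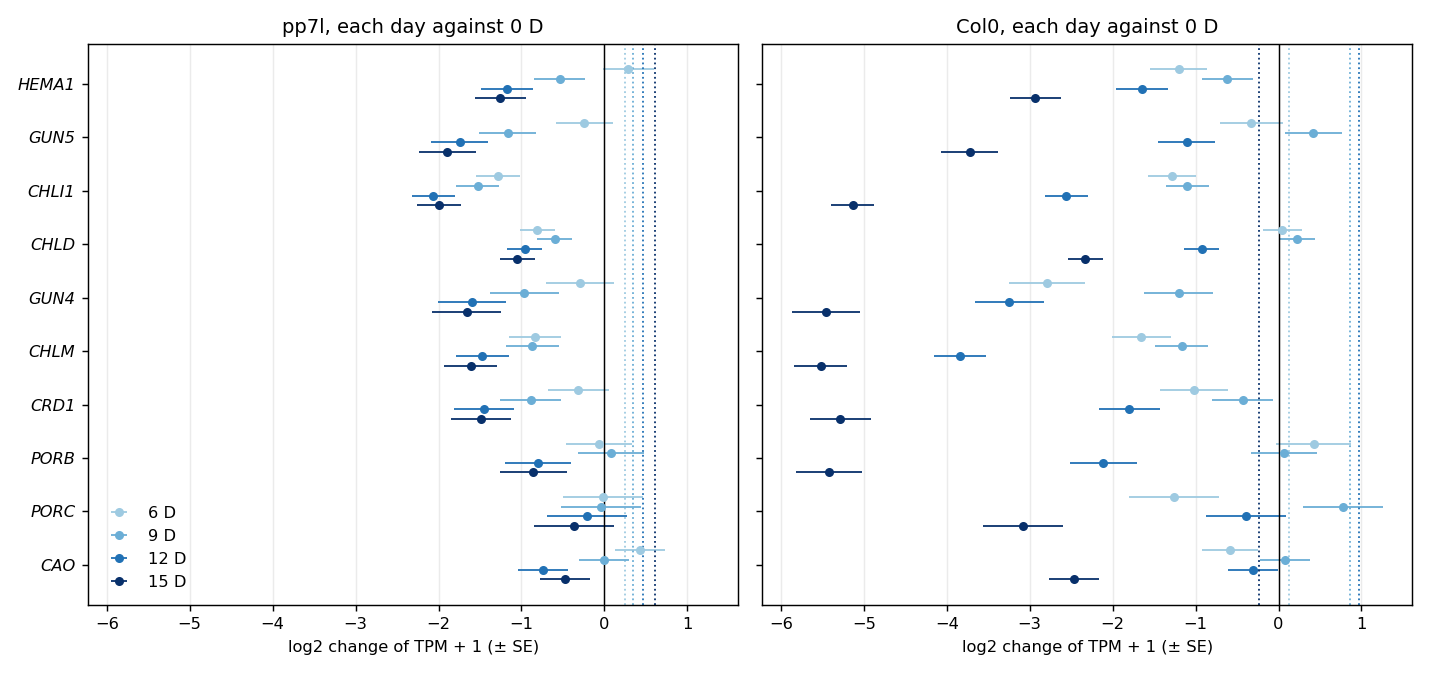
Log2 change of TPM + 1 from 0 D to each later day in pp7l (left) and Col0 (right). Points are limma estimates with 1 SE, darker for later days, and dotted lines mark the median of all tested loci. In Col0 the 15 D points reach beyond -5 for CHLI1, GUN4, CHLM, CRD1 and PORB, and in pp7l the lowest value is -2.06 for CHLI1 at 12 D.

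The genotypes were next compared at each day. In pp7l, 3 members were higher at 0 D (GUN5, CHLD and PORB; 18.8% of all loci were higher), 6 at 6 D (HEMA1, GUN5, GUN4, CRD1, PORC and CAO; 25.9%), 1 at 9 D (PORB, 1.498 ± 0.40 (SE, 1.69 relative, adjusted p = 0.00977); 3.05%), 7 at 12 D (all but HEMA1, CRD1 and CAO; 17.2%) and 10 at 15 D (77.5%). No member was lower in pp7l at any day by this test. Of all loci, 1.43%, 2.93%, 11.6%, 25.4% and 4.46% were lower at 0 D, 6 D, 9 D, 12 D and 15 D in turn. With 18.8% of loci higher at 0 D and 77.5% at 15 D, neither count of higher members at those days sets the members apart from other loci. The median difference of the 10 was 0.58, 1.29, 0.25, 1.09 and 3.62 at 0 D, 6 D, 9 D, 12 D and 15 D, beside 0.28, 0.50, -0.19, -0.19 and 1.27 for all loci. With median-of-ratios scaling, which sets the median locus near 0, 9 of 10 were higher at 15 D, where 30.9% of loci were, and HEMA1 was not. After scaling to nuclear protein-coding loci 10 of 10 were higher, where 61.9% of loci were, by 1.11 for HEMA1 to 5.86 for PORB. Relative to the median locus the difference at 15 D ran from 0.64 for HEMA1 to 4.79 for PORB.

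Several of these calls rest on 1 library. At 0 D, Col0 replicate 3 had the lowest level of GUN5, CHLD, GUN4, CHLM, CRD1, PORB, PORC and CAO in its group. Without it, GUN5 and CHLD were still higher in pp7l, by 1.37 (adjusted p = 0.0235) and 0.95 (adjusted p = 0.0119), and PORB was not, at 0.99 (adjusted p = 0.127). The call of PORB was also lost without pp7l replicate 3, at 1.42 (adjusted p = 0.052). At 6 D no member differed without Col0 replicate 1, and limma then called 727 loci in place of 5407. GUN4 stood at 0.51 (adjusted p = 0.421) and HEMA1 at 1.03 (adjusted p = 0.0873) in that fit. The call of CRD1 at 6 D was also lost without any 1 of the 3 pp7l libraries of that day (adjusted p = 0.0572 to 0.0653). At 9 D the call of PORB was lost without Col0 replicate 1, at 1.39 (adjusted p = 0.0516). At 12 D the call of GUN5 was lost without pp7l replicate 3, at 0.79 (adjusted p = 0.111), and that of GUN4 without Col0 replicate 3, as given above. At 15 D all 10 calls held when any 1 of the 29 libraries was left out.

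**Figure D3:**
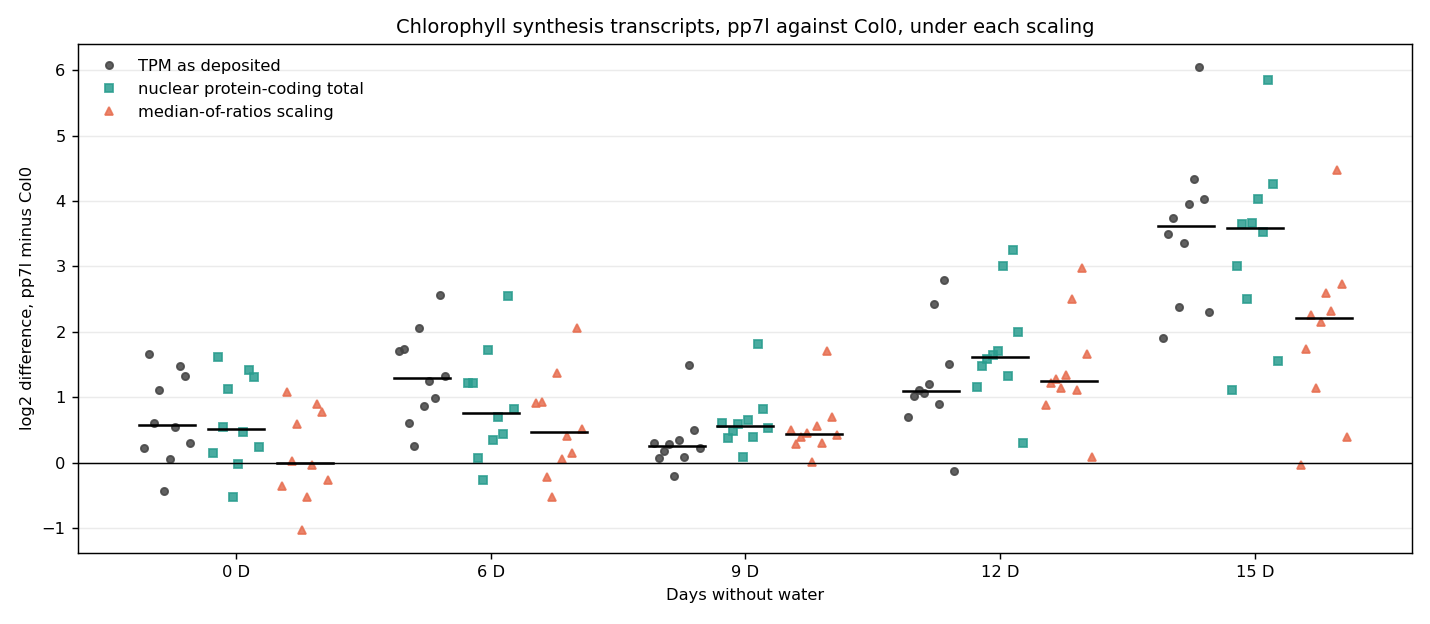
Log2 difference of pp7l minus Col0 for each of the 10 transcripts at each day, from TPM as deposited, from values scaled to nuclear protein-coding loci and from median-of-ratios scaling. Points are transcripts and bars are medians. At 15 D the medians are 3.62 from TPM and lower after median-of-ratios scaling, where HEMA1 lies at -0.03 and PORB at 4.47.

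A call in one genotype and not in the other does not show that they differ, so the changes were compared with each other. At 6 D the change of GUN4 was higher in pp7l, by 2.50 ± 0.62 (SE, adjusted p = 0.0204) (1 of 10 members; 1.92% of all loci), which was 0.96 (adjusted p = 0.0725) without Col0 6 D replicate 1. At 9 D, GUN5 had the lower change in pp7l (1 of 10; 15% of loci). At 12 D, CHLM and GUN4 had the higher change in pp7l, by 2.37 ± 0.45 (SE, adjusted p = 1.85e-04) and 1.65 ± 0.58 (SE, adjusted p = 0.0253) (2 of 10; 9.02% of loci). The call of GUN4 was lost without replicate 2 of Col0 at 0 D (adjusted p = 0.0512) or replicate 3 of Col0 at 12 D (adjusted p = 0.0509). At 15 D all 10 changes were higher in pp7l (51% of loci). The difference ran from 1.28 ± 0.30 (SE, adjusted p = 0.00107) for CHLD and 1.68 ± 0.44 (SE, adjusted p = 0.00264) for HEMA1 to 3.91 ± 0.45 (SE, adjusted p = 2.40e-07) for CHLM and 4.57 ± 0.57 (SE, adjusted p = 6.88e-07) for PORB. The estimates for CHLD, CHLI1, GUN4, CHLM and PORC are compressed by the pseudocount, as given above. The median was 2.93 for the 10 and 0.88 for all loci. With median-of-ratios scaling 8 of 10 were higher (23.5% of loci), and after scaling to nuclear protein-coding loci 10 of 10 (36.4%). These comparisons share the 0 D libraries of both genotypes with the ones above.

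The 10 transcripts also followed each other across the 10 group means. The correlation between 2 members (Pearson r of log2(TPM + 1), 10 group means, 45 pairs) lay between 0.797 and 0.976, with a median of 0.924. PORC was least like the mean of the others (r = 0.875) and CRD1 most (r = 0.987). These points share libraries and the shifts of the total, and they are given as a description. Among 7539 other loci with a group mean of at least 10 TPM, the 5 nearest to the mean profile of the 10 were PSAD-1 (r = 0.991) and PSAF (r = 0.990), subunits of photosystem I, LHCA3 and LHCA1 (both r = 0.991), its light-harvesting proteins, and TLP18.3 (r = 0.989), a thylakoid lumen protein of photosystem II repair. Nearest to HEMA1 alone was IMD1 (r = 0.984), an isopropylmalate dehydrogenase, to PORB the plastid locus ATCG01100 (r = 0.995), and to PORC AT3G29185 (r = 0.988).

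The other genes of the pathway show how far the pattern reaches. Of 14 further genes between glutamyl-tRNA and protoporphyrin, 12 were tested. In pp7l 7 of them were lower and 2 higher at 15 D (5.7% and 49.3% of all loci), and in Col0 11 were lower and 1 higher (34.7% and 16.7%), with medians of -1.01 in pp7l and -1.98 in Col0. The exception in Col0 was HEMA2 (AT1G09940), the second glutamyl-tRNA reductase gene, known from roots and flowers. HEMA2 stood at 12.1, 8.99 and 4.92 TPM at 15 D and 2.13, 3.05 and 2.85 TPM at 0 D in pp7l. In Col0 it stood at 5.48, 6.26 and 2.29 TPM at 15 D and 1.81, 1.36 and 1.36 TPM at 0 D, with no overlap between days in either genotype. HEMA2 rose by 1.33 ± 0.27 (SE, 0.72 relative, adjusted p = 2.72e-04) in pp7l and by 1.10 ± 0.27 (SE, 1.33 relative, adjusted p = 0.00137) in Col0. The test of their difference, 0.23 ± 0.39 (SE, adjusted p = 0.624), did not pass. The ratio of HEMA2 to HEMA1 within a library was 0.477 ± 0.207 at 15 D and 0.0592 ± 0.0111 at 0 D in pp7l, and 1.06 ± 0.138 at 15 D and 0.0397 ± 0.0110 at 0 D in Col0 (SD, n = 3 each). At 12 D, 2 of the 12 were higher and 8 lower in pp7l (37.8% and 6.31% of loci), and 2 higher and 7 lower in Col0 (61.9% and 11.9%).

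Of 8 further genes of the chlorophyll branch, 4 were lower at 15 D in pp7l (median -0.94; 5.7% of all loci were lower) and 8 in Col0 (median -3.23; 34.7%), and all 8 changes were higher in pp7l, where 51% of all loci had a higher change. CHLP (AT1G74470), the geranylgeranyl reductase that makes the phytol tail, changed by -0.63 ± 0.37 (SE, adjusted p = 0.149) in pp7l and fell in Col0, with -4.64 ± 0.37 (SE, adjusted p = 5.32e-11). LIL3.1 (AT4G17600), a membrane anchor of late pathway enzymes, fell in both, with -1.66 ± 0.29 (SE, adjusted p = 4.44e-05) in pp7l and -4.07 ± 0.29 (SE, adjusted p = 4.94e-12) in Col0. Of 9 genes of the heme, bilin and sirohaem branches, 8 were tested. In pp7l 1 was higher and 0 lower at 15 D (49.3% and 5.7% of all loci; median 0.04, beside 0.61 for all loci), and in Col0 6 were lower (34.7% of all loci; median -1.33, beside -0.23). The ferrochelatase genes went apart, by their ratio further in Col0 than in pp7l. FC1 (AT5G26030), the ferrochelatase also found outside green tissue, stood at 18.9, 22.9 and 17.5 TPM in pp7l and 18.7, 17.1 and 6.74 TPM in Col0 at 15 D, and its change in Col0 was 0.34 ± 0.29 (SE, adjusted p = 0.335). FC2 (AT2G30390), the ferrochelatase of photosynthetic tissue, stood at 12.2, 13.2 and 14.5 TPM in pp7l and 2.28, 2.32 and 0.595 TPM in Col0, and fell in Col0 with a change of -2.15 ± 0.29 (SE, adjusted p = 7.00e-07). The ratio of FC1 to FC2 within a library was 1.496 ± 0.267 at 15 D in pp7l, against 0.626 ± 0.0966 at 0 D. In Col0 it was 8.97 ± 2.10 at 15 D, against 0.972 ± 0.154 at 0 D (SD, n = 3 each). In both genotypes every library of 15 D had a higher ratio than every library of 0 D.

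**Figure D4:**
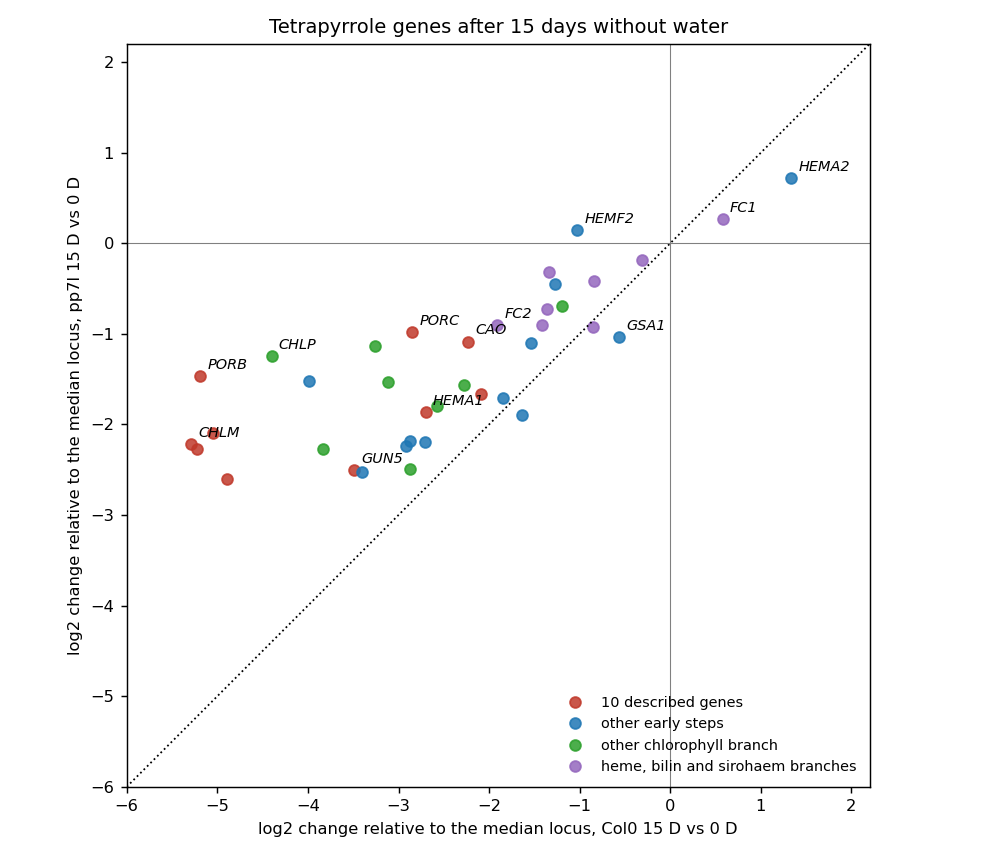
Change from 0 D to 15 D in pp7l (vertical axis) against Col0 (horizontal axis), each as log2 relative to the median locus, for the 10 described transcripts and the tested genes of the other pathway lists. Points above the dotted line of equal change fell less or rose more in pp7l. All 10 lie above it, PORB at -5.19 in Col0 and -1.46 in pp7l, and HEMA2 and FC1 are above 0 in both genotypes.

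**Figure D5:**
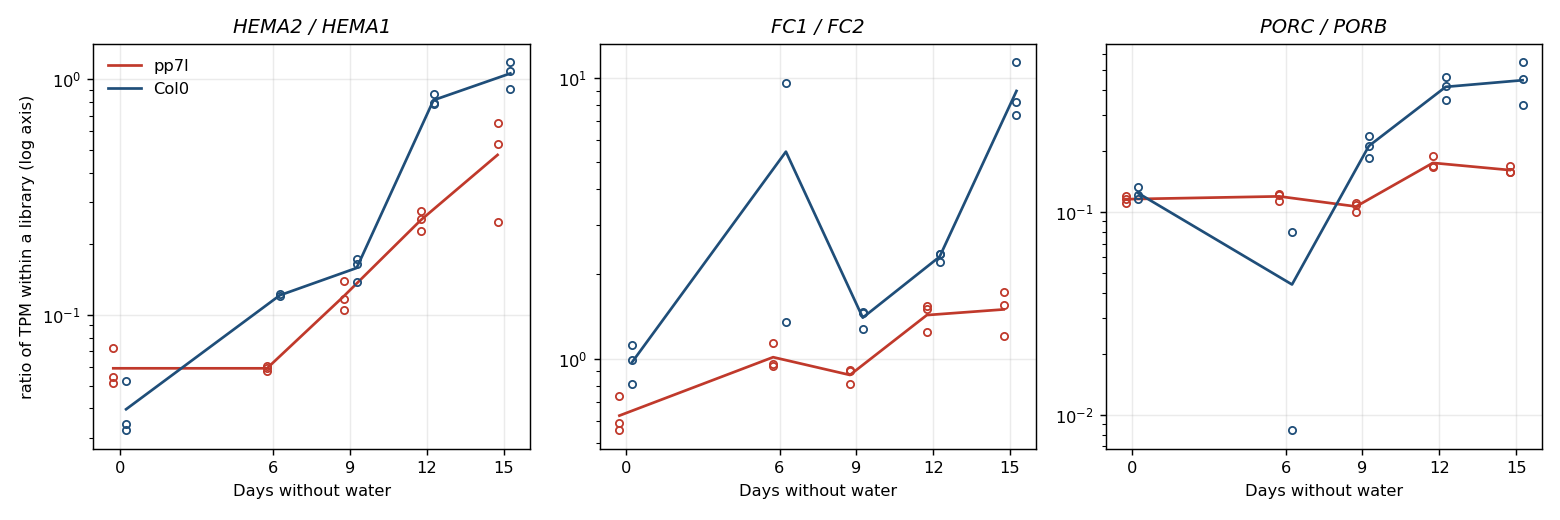
Ratio of TPM within a library (log axis) against days without water, for HEMA2 over HEMA1, FC1 over FC2 and PORC over PORB. Circles are libraries and lines join group means, pp7l in red and Col0 in blue. At 15 D the Col0 libraries lie above all pp7l libraries in all 3 panels, and the Col0 libraries of 6 D differ from each other in FC1 over FC2 and in PORC over PORB.

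Among 7 transcription factor genes tied to these enzymes, 2 were higher and 1 lower at 15 D in pp7l (49.3% and 5.7% of all loci), and 6 were lower in Col0 (34.7%). GLK1 (AT2G20570), an activator of chlorophyll synthesis and antenna genes, stood at 64.7, 70.8 and 84.0 TPM at 15 D and 51.4, 55.7 and 58.5 TPM at 0 D in pp7l. In Col0 it stood at 2.68, 4.65 and 1.16 TPM at 15 D and 65.7, 72.7 and 45.7 TPM at 0 D. Its change was 0.39 ± 0.39 (SE, -0.22 relative, adjusted p = 0.404) in pp7l and -4.10 ± 0.39 (SE, -3.87 relative, adjusted p = 1.32e-09) in Col0, and the changes differed by 4.50 ± 0.55 (SE, adjusted p = 6.56e-07). Of 3 genes of proteins that act on the pathway enzymes, 1 was lower at 15 D in pp7l (5.7% of all loci) and 3 in Col0 (34.7%). FLU (AT3G14110), which represses glutamyl-tRNA reductase in the dark, changed by -0.72 ± 0.47 (SE, adjusted p = 0.200) in pp7l and fell in Col0, with -3.76 ± 0.47 (SE, adjusted p = 1.75e-07).

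Markers of tissues are given beside these results, and they did not all follow the 10 transcripts. The leaf markers RBCS1A, RCA, CA1 and CAB3 summed to 1303 to 1565 TPM at 15 D in pp7l and 14.3 to 66.7 TPM in Col0, and to 7897 to 8090.0 and 5182 to 8448 TPM at 0 D in pp7l and Col0. All 4 were lower at 15 D than at 0 D in both genotypes. The seed markers CRA1, CRU3, SESA3, OLEO1 and OLEO2 summed to 0.372 to 0.635 TPM in pp7l and 99.4 to 282 TPM in Col0 at 15 D. The flower markers AP3, PI, AG, SEP3 and AP1 summed to 2.61 to 11.5 TPM in pp7l and 0.861 to 4.31 TPM in Col0 at that day, and to 1.64 to 3.45 TPM in pp7l and 30.4 to 37.5 TPM in Col0 at 9 D. The senescence protease gene SAG12 stood at 17.2, 16.7 and 51.2 TPM in pp7l and 16.4, 10.7 and 6.44 TPM in Col0 at 15 D, which do not overlap. It was called higher in pp7l there, with a log2 difference of 1.16 (-0.11 relative), but not after scaling to nuclear protein-coding loci (0.19), and it was called lower with median-of-ratios scaling (-0.92). At 0 D SAG12 averaged 0.044 TPM in pp7l and 0.032 TPM in Col0. By 6 D it averaged 21.6 TPM in pp7l and 5.27 TPM in Col0, and at 9 D 12.0 and 64.2 TPM. It was called higher in pp7l at 6 D (2.12) and lower at 9 D (-2.31), under each of these scalings. The 2 Col0 libraries of 6 D held 1.77 and 8.78 TPM of it. When only the groups compared were fitted, 0 loci were called between the genotypes at 6 D. The part of tissue makeup, of senescence and of the share of rRNA in the levels of the 10 transcripts was not tested.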

How the data were processed

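Total RNA of whole plants was sequenced from TruSeq libraries, per the labels. Per the submitters' processing notes, reads were trimmed with Trimmomatic, checked with FastQC and quantified with Salmon against TAIR10; versions and the use of strand are not given in the sources used here. The authors deposited TPM values for nuclear, plastid and mitochondrial loci. Counts are not used here, so depth is unknown and precision rests on the replicates.

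Every column was matched to 1 sample by genotype, day and replicate number. Log2(TPM + 1) of 18757 loci with at least 1 TPM in at least 3 libraries was fitted with limma 3.58.1 (R 4.3.3, trended variances) as 10 group means over all 29 libraries, with 19 residual degrees of freedom. Of 17 contrasts, each was adjusted by Benjamini-Hochberg over all tested loci, with calls at 0.05. The fitting was tested on simulated data. Alternatives changed the pseudocount, filter, scaling, samples in the fit and replicate block, or dropped 1 library at a time. The total of nuclear protein-coding loci (27307 loci) was chosen as a scaling after seeing the data. Median-of-ratios scaling used 15623 loci above 0 in all libraries.

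Replicate numbers were checked for pairing after removal of group means. Of 37 same-numbered pairs, 4 correlated over 0.1 across loci, and in 1 of 13 comparisons, pp7l against Col0 at 15 D, every pair did (0.124 to 0.265). The block changed no call of a member there.

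The 10 members were listed by gene identifier and not by their values. They, the other lists, the motifs and the rule for likeness were still chosen with earlier results of these data known. The text names all members, genes of those lists and the loci most like the members by Pearson r. Overlaps, coding sequences and upstream windows came from the TAIR10.1 RefSeq reference, a later release of the build named by the submitters, with Python 3.11.15, pandas 2.3.3 and Biopython 1.88, and 32954 of 33681 loci were found in it. Figures were drawn with matplotlib 3.10.9.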

Additional observations from a re-analysis of the deposited data

Results flagged for a closer look

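The results in this paragraph are those in which the change from 0 D differed between pp7l and Col0 by a test of the difference itself, the contrast of pp7l's change minus that of Col0 in the limma fit, adjusted over all tested loci. At 15 D this was so for all 10 transcripts, where 51% of all loci had a higher change in pp7l. By pathway order, the difference was 1.68 ± 0.44 (SE, adjusted p = 0.00264) for HEMA1, 1.83 ± 0.49 (SE, adjusted p = 0.00309) for GUN5, 3.14 ± 0.37 (SE, adjusted p = 3.27e-07) for CHLI1, 1.28 ± 0.30 (SE, adjusted p = 0.00107) for CHLD and 3.80 ± 0.58 (SE, adjusted p = 1.16e-05) for GUN4. It was 3.91 ± 0.45 (SE, adjusted p = 2.40e-07) for CHLM, 3.80 ± 0.52 (SE, adjusted p = 2.63e-06) for CRD1, 4.57 ± 0.57 (SE, adjusted p = 6.88e-07) for PORB, 2.71 ± 0.68 (SE, adjusted p = 0.00191) for PORC and 1.99 ± 0.43 (SE, adjusted p = 4.74e-04) for CAO. CHLD, HEMA1 and GUN5 had the 3 lowest estimates and PORB the highest, but differences between members were not tested. All Col0 libraries of 15 D held CHLD at under 1 TPM, where the pseudocount compresses its estimate. The estimates for CHLI1, GUN4, CHLM and PORC, whose Col0 means at 15 D were also under 1 TPM, are compressed too. With median-of-ratios scaling HEMA1 (0.32, adjusted p = 0.211) and CHLD (0.55, adjusted p = 0.0965) were not called. At 12 D the difference was 2.37 ± 0.45 (SE, adjusted p = 1.85e-04) for CHLM and 1.65 ± 0.58 (SE, adjusted p = 0.0253) for GUN4. At 9 D it was -1.59 ± 0.49 (SE, adjusted p = 0.0275) for GUN5, the 1 case with the lower change in pp7l. At 6 D it was 2.50 ± 0.62 (SE, adjusted p = 0.0204) for GUN4, where the Col0 libraries of that day held 2.30 and 27.2 TPM. With a pseudocount of 0.1 GUN4 was called neither at 6 D nor at 12 D (adjusted p = 0.0561 and 0.0586), and GUN5 at 9 D was not called either (adjusted p = 0.0546).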

How the results depend on the processing

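The calls of all 10 members at 15 D in Col0 against 0 D, in pp7l against Col0, and in the difference of change held in each of the 29 fits that left out 1 library. Of 170 member results, 163 kept direction and call with a pseudocount of 0.1, 167 without the filter, 125 with median-of-ratios scaling, 146 with the total of nuclear loci without rRNA, 139 with the total of nuclear protein-coding loci, and 136 when only the groups compared were fitted. Results at 6 D depend on Col0 6 D replicate 1. Depth is unknown, so no limit can be set for members under 1 TPM in Col0 at 15 D. Where a value below differs from the reported one, the cause was not tested. Numbers of loci in brackets below count calls in both directions. Percentages there are of all tested loci called in the same direction as the members. Those shares are given for median-of-ratios scaling and for the total of nuclear protein-coding loci only.

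Median-of-ratios scaling changed the sign of some results, none of which was called in both fits. In Col0 at 9 D, GUN5 went to -0.93, CHLD to -0.99, PORB to -1.31 and CAO to -1.25. CHLM went to -0.54 in pp7l against Col0 at 0 D, and CAO to 0.69 in the difference at 9 D. These were called only under that scaling. HEMA1 in pp7l against Col0 at 15 D lost its call, at -0.033 (adjusted p = 0.859). In the difference at 15 D this scaling left HEMA1 and CHLD uncalled. Under this scaling, members lower in Col0 numbered 8 at 6 D (28.3%, 10048 loci) and 9 at 9 D (25.1%). In pp7l, 6 were lower at 6 D (17%) and 8 at 9 D (20.4%). In pp7l against Col0, 2 were lower at 0 D (18.1%, 6600 loci) and 3 higher at 9 D (8.91%, 4122 loci). In the differences, 3 were higher (16.5%) and 1 lower (14.1%) at 6 D (5753 loci). There, 4 were higher at 9 D (5.29%) and 6 at 12 D (22.7%).

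With the total of nuclear protein-coding loci, 2 members were higher in Col0 at 6 D (45.1%, 10279 loci) and 5 lower at 9 D (5.3%). In pp7l, 2 were higher at 6 D (35.2%, 7385 loci) and 7 lower at 9 D (6.89%). In pp7l against Col0, 6 were higher at both 0 D (34%, 6842 loci) and 9 D (9.95%). The differences gave 2 higher (8.99%) and 1 lower (17.7%) at 6 D (4805 loci) and 6 higher at 12 D (17%). With the total of nuclear loci without rRNA, 1 member was higher in Col0 at 6 D (9675 loci), 5 were lower in Col0 at 9 D and 7 in pp7l at 9 D, and the differences gave 2 higher and 1 lower at 6 D (3479 loci) and 6 higher at 12 D.

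Fits of only the groups compared gave, in limma, 0 members lower in Col0 at 6 D (0 loci called, 2602 at an unadjusted p under 0.05, 3 members among them) and 0 members higher in pp7l than in Col0 at 6 D (0 loci called, 2119 unadjusted, 3 members among them). They gave 1 member higher and 5 lower in pp7l at 6 D (9655 loci), 7 lower in pp7l at 9 D (10662 loci), 5 higher and 1 lower in pp7l against Col0 at 0 D (7634 loci) and 4 higher at 9 D (7399 loci). The differences gave 0 higher at 6 D (201 loci, 3 members unadjusted) and 3 lower at 9 D (8990 loci). A pseudocount of 0.1 gave 2673 loci in pp7l at 6 D, 2 members lower in pp7l at 9 D, 1769 loci in pp7l against Col0 at 9 D, 0 members higher in the difference at 6 D (429 loci), 0 lower in that at 9 D and 1 higher in that at 12 D. Without the filter, 2 members were lower in the difference at 9 D.

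Leaving out 1 library gave 0 to 1 members higher and 3 to 8 lower in Col0 at 6 D (3202 to 8193 loci), and 0 to 1 higher in Col0 at 9 D. It gave 2205 to 6548 loci in pp7l at 6 D and 2 to 6 members lower in pp7l at 9 D (3982 to 8627 loci). In pp7l against Col0, 2 to 5 members were higher at 0 D (1369 to 6318 loci), 0 to 9 at 6 D (727 to 13033 loci) and 0 to 1 at 9 D (1887 to 4480 loci). The differences gave 0 to 6 higher and 0 to 1 lower at 6 D (344 to 8401 loci), 0 to 2 lower at 9 D (1460 to 5828 loci) and 1 to 3 higher at 12 D.

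With the replicate number as a block, 169 of 170 member results kept their call, and CAO in pp7l at 12 D, -0.74, did not (adjusted p = 0.0563). Over all pairs in the pairing check, correlations ran from -0.109 to 0.265.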
